A study of Mus musculus with 12 samples.

Results

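Osteoclasts from Notch2 mutant mice were compared with osteoclasts from wild type mice in cultures in which Hes1 had been deleted from both. The comparison rests on 6 of the 12 libraries of the series: the 3 titled as Notch2 mutant with Hes1 deletion and the 3 titled as wild type with Hes1 deletion. The other 6 libraries hold the same Notch2 genotypes with a Hes1 gene that is flanked by loxP sites and intact (Hes1 loxP), and they enter the same fit, share its estimate of spread and filter on low counts, and give the same genotype comparison with Hes1 present. Osteoclasts are large cells with many nuclei that resorb bone. Per the labels and the design text, marrow was flushed from male littermates aged 7 to 8 weeks. Its macrophages were expanded in M-CSF (30 ng/ml), the growth factor of this lineage, and RANKL, the signal that turns them into osteoclasts, was given on day 3 and kept for 4 days. All groups share this culture. The sources used here name neither the Notch2 mutation nor the agent that removed Hes1. The labels call the libraries of a group biological replicates without saying how many mice each came from, so the p-values measure the spread between these cultures.

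NOTCH2 is a cell surface receptor whose cleaved intracellular part enters the nucleus and joins the DNA-binding protein RBPJ to switch on target genes. HES1, one of the best known of these targets, is a basic helix-loop-helix protein that represses transcription. Removing it lets the Notch2 genotypes be compared in its absence. Hes1 RNA was low with the loxP gene as well, and the deletion and loxP libraries also differed in Ctsk (values below). The design therefore does not isolate what a Notch2 mutation does through HES1. In the osteoclast lineage, Notch signals act on macrophage precursors and on the maturation that RANKL sets in motion through the transcription factor NFATc1.

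Counts assigned to genes ranged from 14573372 to 18182925 in the 6 Hes1 deletion libraries, and 13403 genes were tested. Hes1 itself had 0, 0 and 2 counts in the wild type libraries and 0, 1 and 1 counts in the Notch2 mutant libraries with the deletion, against 23 and 7 counts summed over the 3 wild type and 3 mutant Hes1 loxP libraries. At 2 counts in each genotype, both Hes1 deletion groups lay under the floor of 3 counts per group (0.0583 CPM in wild type and 0.0635 CPM in mutant, counting error only), so no fold was computed; CPM is the usual depth-scaled value, taken over counts assigned to genes. The means were 0.0418 ± 0.0724 CPM in wild type and 0.0408 ± 0.0354 CPM in mutant (SD, n = 3; two-sided exact permutation p = 1.0, where 3 libraries against 3 can give no p below 0.1). Ctsk, the collagen-degrading protease of osteoclasts, measured 4940, 4750 and 4070 CPM in wild type and 4970, 4880 and 5290 CPM in mutant libraries, so the labelled cell type had its defining marker in each. All 6 values lay below the Hes1 loxP libraries, whose means were 9030 ± 209 CPM in wild type and 10600 ± 434 CPM in mutant (SD, n = 3). Among the Hes1 deletion libraries, wild type replicate 3 stood apart. It differed from replicates 1 and 2 by a chi-square per gene of 8.41 and 8.04. Replicates 1 and 2 differed by 2.4, and the mutant libraries with the deletion by 3.09 to 4.55. Pairs within the Hes1 loxP groups differed by 3.61 to 7.77, the most between mutant replicates 2 and 3. Several values below are also given without wild type Hes1 deletion replicate 3.

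With Hes1 deleted, 2 of the 13403 genes passed the test (edgeR quasi-likelihood, Benjamini-Hochberg adjusted p under 0.05; 0.0149% of genes tested), and both were lower in the mutant. They were Tnc, which encodes tenascin-C, a large glycoprotein laid down in remodelling matrix, and Timp3, which encodes a matrix-bound inhibitor of metalloproteinases. Without the adjustment, 897 genes (6.69% of genes tested) had a p under 0.05, 431 of them higher (3.22%) and 466 lower (3.48%). All mutant libraries lay above all wild type libraries for 657 genes (4.9%) and below them for 1003 genes (7.48%), and the counts within gene lists below are read against these shares. DESeq2 called 3 genes (Tnc, Timp3 and Gja1) and limma-voom called Tnc alone.

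Tnc (ENSMUSG00000028364; GRCm38 chr4:63959785-64047015, minus strand) measured 27.2, 26.9 and 32.5 CPM in the wild type libraries and 17.2, 19.2 and 17.0 CPM in the mutant libraries. All 3 mutant values lay below all 3 wild type values. The log2 fold change was -0.68 ± 0.09 (standard error; 95% interval -0.87 to -0.49; edgeR adjusted p = 0.00812). Timp3 (ENSMUSG00000020044; GRCm38 chr10:86300372-86349506, plus strand) measured 14.2, 10.2 and 10.8 CPM in wild type and 4.67, 4.27 and 4.99 CPM in mutant. Here too the groups did not overlap, and the mutant libraries varied less among themselves (SD 0.358 CPM) than the wild type ones (SD 2.14 CPM). Its log2 fold change was -1.33 ± 0.21 (95% interval -1.77 to -0.88; edgeR adjusted p = 0.0452). Exons of an antisense gene overlap each of them (8030451A03Rik for Tnc, Syn3 for Timp3), and the sources used here do not give the strand setting of the counting, so reads of the partners may be mixed. The count of 2 was 0 without mutant Hes1 deletion replicate 1 or 3, and 1 without mutant Hes1 deletion replicate 2, wild type Hes1 deletion replicate 1 or 2, wild type Hes1 loxP replicate 2 or mutant Hes1 loxP replicate 1. Leaving out replicate 3 of the wild type Hes1 deletion libraries gave 5.

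The sequence before the start of each of the called genes is shown because Notch and HES proteins act at such sites: RBPJ binds TGGGAA cores, and HES proteins bind E boxes (CACGTG), class C sites (CACGCG) and N boxes (CACNAG). Each line gives 200 bases of the reference (RefSeq, GRCm38.p6) from 250 to 51 bases before the annotated start, 5′ to 3′ on the gene's strand, with the only match in that window to any of these motifs on either strand in capitals; the Tnc window is chr4:64047066-64047265 on the minus strand and the Timp3 window is chr10:86300162-86300361 on the plus strand.
Tnc: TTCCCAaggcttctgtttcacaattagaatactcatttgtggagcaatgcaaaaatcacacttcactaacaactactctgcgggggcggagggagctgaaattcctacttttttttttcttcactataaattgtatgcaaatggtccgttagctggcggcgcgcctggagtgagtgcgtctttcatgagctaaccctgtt
Timp3: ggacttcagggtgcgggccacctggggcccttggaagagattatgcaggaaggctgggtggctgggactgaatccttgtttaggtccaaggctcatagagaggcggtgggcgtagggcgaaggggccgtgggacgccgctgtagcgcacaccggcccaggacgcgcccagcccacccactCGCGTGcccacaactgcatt
RefSeq holds another start for Tnc, whose window (chr4:64046987-64047186, minus strand) overlaps the one printed and holds 1 match, an RBPJ core on the gene's own strand. In the window printed, the Tnc capitals read as the RBPJ core on the opposite strand, at the first bases, and the Timp3 capitals read as a class C site on the opposite strand. Among 32851 windows of the same length before RefSeq starts, 17.9% held the RBPJ core, 4.34% the E box, 5.74% the class C site and 31.1% the N box. A match is a description of these letters and no evidence of binding.

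The other genes with the smallest p among those whose mutant and wild type libraries did not overlap missed the adjusted threshold in both directions. Since the absence of overlap was a condition of the choice, it adds nothing to their p. On the lower side, Gja1, which encodes the gap junction protein connexin 43, measured 71.5, 62.0 and 61.0 CPM in wild type and 51.8, 46.6 and 44.7 CPM in mutant (log2 fold change -0.43 ± 0.08, edgeR adjusted p = 0.279). Thbs2, which encodes the matricellular protein thrombospondin 2, measured 8.45, 8.08 and 10.5 CPM against 5.01, 5.05 and 4.92 CPM (-0.83 ± 0.18, adjusted p = 0.313). The mutant values of Thbs2 were nearly equal to each other, and the wild type spread came from replicate 3. Cald1 and Tagln, actin-binding proteins of smooth muscle and fibroblasts, had log2 fold changes of -0.84 and -0.81, Cspg4, a proteoglycan of pericytes, of -0.62, and Pmp22 and Lhfpl2, which encode membrane proteins, of -0.44 and -0.39. Cd36, a scavenger receptor for fatty acids and oxidised lipid, measured 159, 172 and 212 CPM in wild type and 115, 125 and 135 CPM in mutant (-0.52 ± 0.11). Kif20b, a mitotic kinesin, had -0.31 and Ccsap, a centriole and spindle protein, -0.49.

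On the higher side, the genes that met the same conditions also missed the adjusted threshold. Slc17a9, the vesicular transporter that loads ATP into secretory vesicles and lysosomes, measured 9.20, 9.84 and 9.21 CPM in wild type and 11.8, 13.8 and 13.1 CPM in mutant (log2 fold change 0.47 ± 0.10, edgeR adjusted p = 0.313). Cd38, a surface enzyme that consumes NAD, measured 5.61, 4.84 and 5.33 CPM against 8.30, 8.06 and 7.60 CPM (0.62 ± 0.15, adjusted p = 0.333). Krba1, a gene of unsettled function, had the smallest p on this side (37.7, 38.1 and 38.3 CPM against 47.1, 44.8 and 48.9 CPM; 0.32 ± 0.06, adjusted p = 0.279). Nr1h3 encodes LXR alpha, the oxysterol receptor of macrophages, and measured 37.8, 43.1 and 54.0 CPM against 55.6, 56.8 and 56.3 CPM (0.34 ± 0.08, adjusted p = 0.349). Wild type replicate 3 lay close to the mutant ones, and without that library the log2 fold change was 0.48 and passed (adjusted p = 0.0087). The remaining genes on this side were Nkain1 (0.32), Kazn (0.23), the long noncoding RNAs Firre (0.34) and Malat1 (0.31), Gdpd5 (0.39), Tbc1d16 (0.24), mt-Co2 (0.28) and Tnfaip2 (0.23), all with adjusted p between 0.318 and 0.389.

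**Figure D1:**
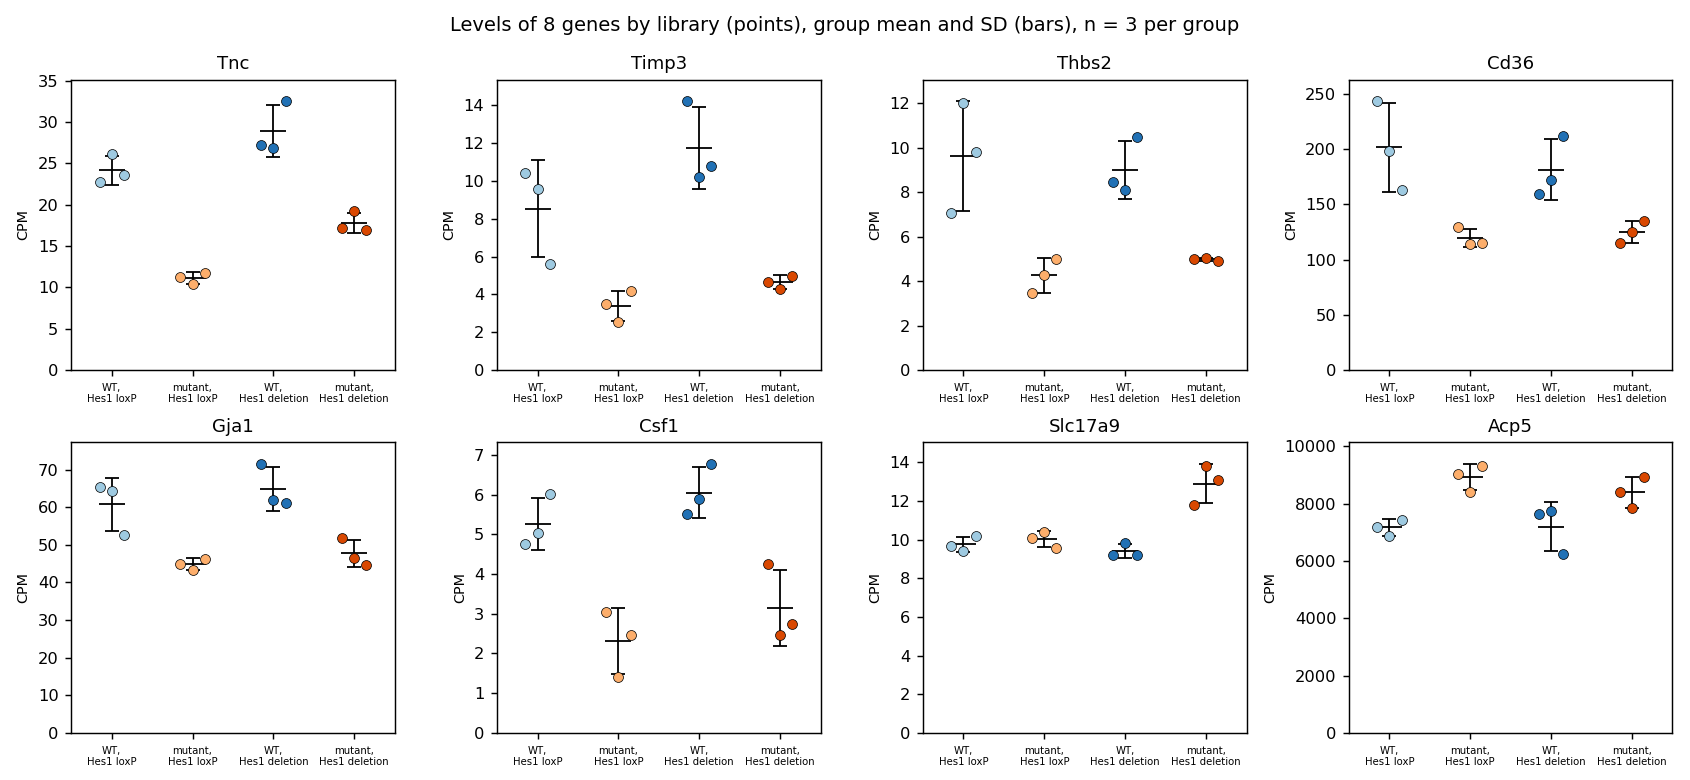
Levels of 8 genes in CPM (vertical axis, from 0) in each library (points) of the 4 groups, with group means and SD (bars, n = 3); WT is wild type. Mutant and wild type points do not overlap for Tnc, Timp3, Thbs2, Cd36, Gja1, Csf1, Slc17a9 or Acp5 with Hes1 deleted, and Slc17a9 alone among them overlaps between genotypes with Hes1 intact.

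The matrix genes were the list with the lowest median among the functional groups. Of 21 matricellular and matrix remodelling genes tested, 19 had a negative log2 fold change, 12 of them at an unadjusted p under 0.05, and the called genes Tnc and Timp3 belong to it. All mutant libraries lay below all wild type libraries for 11 of the 21. The list median was -0.50, and -0.37 without wild type replicate 3, where the median of all genes tested was 0.00. Tnn, which encodes tenascin-N, measured 5.38, 6.60 and 5.45 CPM in wild type and 3.23, 4.15 and 2.43 CPM in mutant (-0.82 ± 0.21, edgeR adjusted p = 0.389). Stromal and osteoblast markers moved with these genes: 13 of the 14 tested (18 listed) had a negative log2 fold change, 11 at an unadjusted p under 0.05 and none called, with a median of -0.57. Summed over the 18 listed markers, they were at 348 to 369 CPM in wild type and 213 to 308 CPM in mutant libraries, with no overlap, and none was at 0 over the 6 libraries, although Lum had 2 counts. Col6a3, a collagen chain of connective tissue, measured 10.9, 16.6 and 14.7 CPM against 10.1, 9.33 and 6.98 CPM (-0.67 ± 0.17). Cxcl12, the stromal chemokine, measured 0.579, 1.37 and 0.877 CPM against 0.137, 0.241 and 0.0623 CPM (10, 25 and 14 counts against 2, 4 and 1). Cxcl12 and the osteoblast factor Sp7 passed the filter on low counts only through wild type libraries, so their fold changes are not read. Both are among the 11 genes at an unadjusted p under 0.05. In bulk cultures, fewer cells of a type and less RNA per cell cannot be told apart. With a stromal score as a covariate, an alternative added after the data were seen, the median of the matrix list was 0.04 and no gene was called. In that fit Tnc and Timp3 had log2 fold changes of -0.54 and -1.08. Their edgeR unadjusted p was 9.17e-04 and 0.00503, and their adjusted p was 0.811 for each, a value that many other genes shared. That score averages the log2 CPM of the stromal markers, and it kept the genotypes apart (2.82 to 3.03 in wild type and 2.01 to 2.42 in mutant libraries with Hes1 deleted), so in that fit the genotype and the stromal level cannot be told apart.

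**Figure D2:**
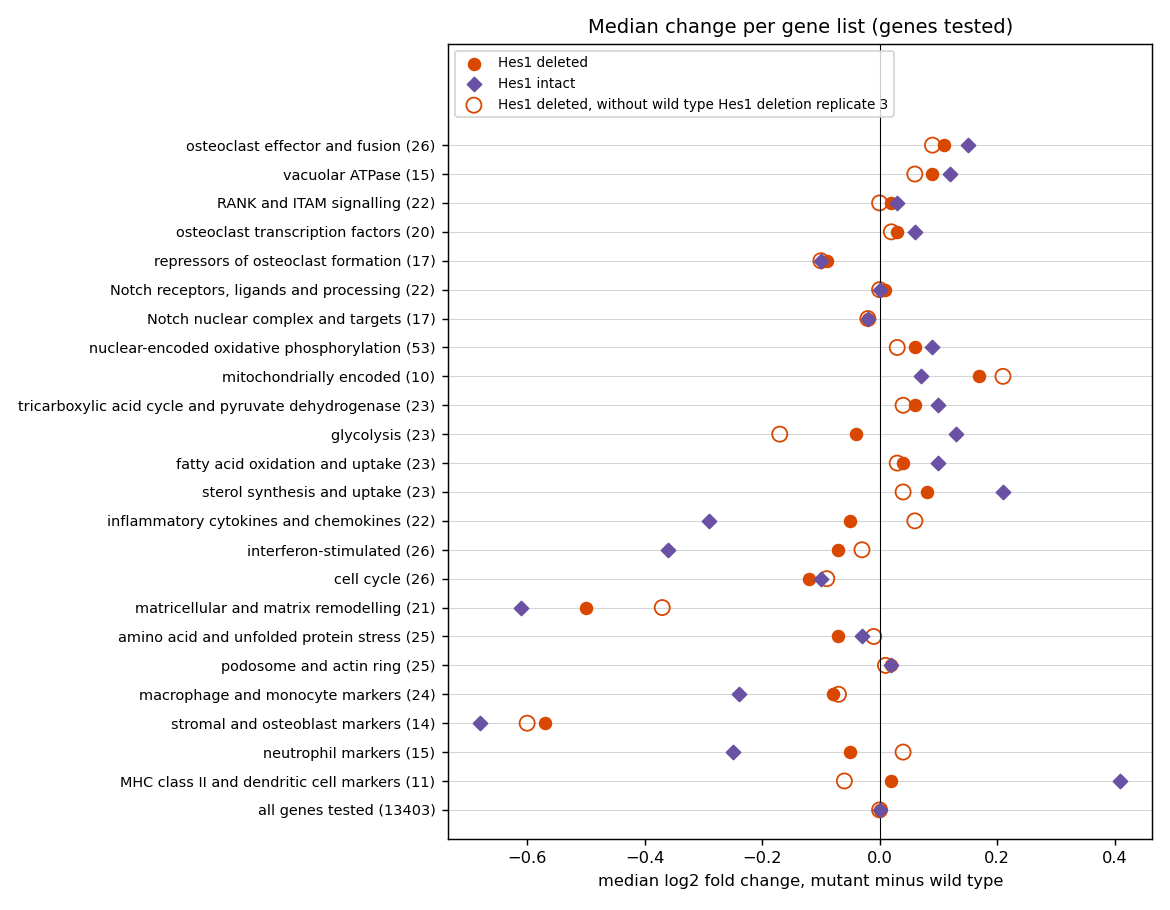
Median log2 fold change of mutant minus wild type (horizontal axis) of each gene list with at least 10 genes tested (number in brackets), with Hes1 deleted, with Hes1 intact, and with Hes1 deleted but without wild type Hes1 deletion replicate 3. The matrix and stromal lists lie lowest in all 3 (-0.50 and -0.57 with Hes1 deleted), while the medians of interferon-stimulated, inflammatory, sterol and MHC class II genes lie nearer to 0 with Hes1 deleted than with Hes1 intact.

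Genes that carry out bone resorption and cell fusion had small positive fold changes. Of 26 osteoclast effector and fusion genes, 25 had a positive log2 fold change and 12 of them had an unadjusted p under 0.05, but none was called. The list median was 0.11, with a range of -0.02 to 0.23. Tcirg1, the proton pump subunit of the resorbing membrane, measured 1450, 1500 and 1430 CPM in wild type and 1670, 1590 and 1740 CPM in mutant (0.21 ± 0.06, edgeR adjusted p = 0.517). Acp5, which encodes tartrate-resistant acid phosphatase, measured 7640, 7730 and 6230 CPM against 8410, 7850 and 8920 CPM (0.23 ± 0.08, adjusted p = 0.65). Every mutant library was above every wild type library for 9 of the 26 genes, where the share over all genes tested was 4.9%; besides Tcirg1 and Acp5, they included Ocstamp, a membrane protein needed for fusion (0.20), and Mmp14, a membrane-anchored collagenase (0.16). For Acp5 and Ctsk (0.15 ± 0.07), wild type replicate 3 was the lowest library. Without that library the list median was 0.09 with 7 genes at an unadjusted p under 0.05, and Acp5 and Ctsk had 0.13 and 0.06.

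The vacuolar ATPase, the proton pump that acidifies the space under the osteoclast, had a like pattern: 14 of 15 subunits and accessory proteins had a positive log2 fold change, with a median of 0.09. At an unadjusted p under 0.05 stood 6 of them, among them Atp6v0e (0.13) and Atp6v0b (0.12), and 1 when wild type replicate 3 was left out. Upstream, the receptors and kinases of RANK and ITAM signalling had a median of 0.02 over 22 genes, with 2 genes at an unadjusted p under 0.05, a share near the 6.69% of all genes tested. They were Trem2, a receptor that signals through DAP12 (-0.18), and Blnk, an adaptor of the Btk kinase pathway (-0.17); without wild type replicate 3 the list median was 0.00 and Trem2 had an unadjusted p of 0.103. The osteoclast transcription factors had a median of 0.03 over 20 genes, with 1 gene at an unadjusted p under 0.05. That gene was Nfatc1, which measured 968, 954 and 988 CPM in wild type and 995, 1080 and 1060 CPM in mutant (0.12 ± 0.05, adjusted p = 0.695). It was also the 1 gene of the 20 whose mutant libraries all lay above the wild type ones. Both counts are near the shares over all genes tested (6.69% and 4.9%). Among 17 repressors of osteoclast formation, 11 had a negative fold change and 4 an unadjusted p under 0.05, all lower: Rbpj (-0.13), Lrrfip1 (-0.11), Bcl6 (-0.15) and Irf8 (-0.22). The groups of Irf8 overlapped. Without wild type replicate 3, 10 of the repressors had a negative and 7 a positive fold change, and 3 were lower at that level. Irf8 then had -0.16 (edgeR unadjusted p = 0.175). The podosome and actin ring list had a median of 0.02 over 25 genes, and 2 of them were at an unadjusted p under 0.05, again near the share over all genes. They were Ptk2b, the focal adhesion kinase relative of the sealing zone (0.11), and Rac2, a haematopoietic GTPase (0.15), and without wild type replicate 3 the median was 0.01 and Rac2 had an unadjusted p of 0.129.

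Members of the Notch pathway had fold changes of both signs with medians near 0. Notch2 measured 161, 153 and 173 CPM in wild type and 162, 175 and 171 CPM in mutant, with overlapping groups (0.07 ± 0.06, 95% interval -0.05 to 0.19, edgeR adjusted p = 0.865); another gene model, Gm42820, overlaps its exons. Of 22 receptors, ligands and processing enzymes tested, 13 had a positive and 9 a negative log2 fold change, with a median of 0.01. They ranged from -0.20 ± 0.12 for Mfng, a glycosyltransferase that modifies Notch receptors, to 0.34 ± 0.47 for the ligand Dll4, which was low (means of 0.514 and 0.668 CPM). Lfng, an enzyme of the same family, was the member at an unadjusted p under 0.05 (0.11), and 1 of 22 is no more than the share over all genes. Mfng measured 27.8, 27.8 and 20.7 CPM in wild type and 22.5, 22.4 and 21.1 CPM in mutant libraries. The lowest of these was wild type replicate 3, and without it Mfng had -0.33 (unadjusted p = 0.00385, edgeR adjusted p = 0.491) and the list 1 gene higher and 2 lower at an unadjusted p under 0.05. Of 17 members of the nuclear complex and target list, Rbpj alone reached that level, and 3 did without wild type replicate 3. The target genes Hey1, Heyl and Nrarp fell below the filter on low counts. Hey1 had 1, 2 and 1 counts in wild type and 7, 3 and 3 counts in mutant libraries, Heyl had 2, 3 and 5 against 9, 4 and 1, and Nrarp had 3, 4 and 0 against 1, 3 and 1. Only Hey1 kept its groups apart among these, at counts too low for the test.

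Genes of energy metabolism are taken by route. Of 53 nuclear-encoded subunits of oxidative phosphorylation, 50 had a positive log2 fold change, 8 of them at an unadjusted p under 0.05, with a median of 0.06; Uqcrq (0.13) and Cox5a (0.11), subunits of complexes III and IV, were the members with the smallest p. The median was 0.03, with 0 genes at that level, without wild type replicate 3. Mitochondrially encoded genes had a median of 0.17 over the 10 tested, and 0.21 without that library. Among them mt-Co2 measured 75.5, 74.3 and 82.3 CPM in wild type and 89.8, 92.1 and 97.5 CPM in mutant (0.28 ± 0.07, edgeR adjusted p = 0.385), and mt-Co1 had 0.22. For mt-Nd6, which lies antisense to mt-Nd5, the values were 5.96, 4.34 and 4.64 CPM against 8.99, 6.62 and 12.8 CPM (0.94 ± 0.28, adjusted p = 0.628). With the stromal covariate mt-Nd6 had 0.25. The list ranged from -0.35 to 0.94, with 9 genes positive and 1 negative. In the tricarboxylic acid cycle, 19 of 23 genes had a positive fold change, with a median of 0.06, and 4 were higher at an unadjusted p under 0.05, among them Mdh2, mitochondrial malate dehydrogenase (0.12). Without wild type replicate 3 the median was 0.04, with 0 genes higher and 1 lower at that level. Fatty acid oxidation and uptake had a median of 0.04 over 23 genes; Cpt2, the inner membrane carnitine transferase, had 0.20 where Cd36 had -0.52. Sterol synthesis and uptake had a median of 0.08, and Cyp51 (0.30) and Hmgcs1 (0.16), enzymes of cholesterol synthesis, were among the 4 of 23 genes at an unadjusted p under 0.05. Without wild type replicate 3 the median was 0.04 with 2 genes at that level, and Hmgcs1 had 0.13 (unadjusted p = 0.0949).

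Glycolytic genes had mostly negative fold changes, by an amount that depended on 1 library. Of 23 glycolytic genes, 18 had a negative log2 fold change, with a median of -0.04, and -0.17 without wild type replicate 3. At an unadjusted p under 0.05, 4 genes were lower, and 10 without that library. Hk2, hexokinase 2, measured 81.5, 73.2 and 72.4 CPM in wild type and 60.7, 66.9 and 57.1 CPM in mutant (-0.29 ± 0.09, edgeR adjusted p = 0.636). Slc2a1, the glucose transporter GLUT1, had -0.26 ± 0.08 and Pfkfb3, which makes the activator of phosphofructokinase, -0.28 ± 0.09. Ldhb, the lactate dehydrogenase subunit that favours lactate use, was the exception at that level, at 65.9, 66.2 and 64.6 CPM against 75.2, 77.6 and 74.6 CPM (0.22 ± 0.06, adjusted p = 0.434).

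All 26 cell cycle genes had a log2 fold change at or below 0, with a median of -0.12, and 13 were lower at an unadjusted p under 0.05. Kif20a, a kinesin of cytokinesis, measured 117, 118 and 119 CPM in wild type and 100, 107 and 100 CPM in mutant (-0.19 ± 0.05, edgeR adjusted p = 0.349). Rrm2, the ribonucleotide reductase subunit of S phase, had -0.19, Kif11, the spindle kinesin, -0.20 and Mcm2, a replication helicase subunit, -0.15. Without wild type replicate 3, the highest library of this list (3540 summed CPM, against 3200 and 3260 in its group and 2850 to 3240 in the mutant), 5 of the genes were at that level and the median was -0.09. Amino acid and unfolded protein stress genes had a median of -0.07, and -0.01 without that library.

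Inflammatory cytokines and chemokines had a median of -0.05 over 22 genes, and 0.06 without wild type replicate 3, so the sign of the median rested on that library. Single members had larger values. Nos2, inducible nitric oxide synthase, measured 7.23, 6.87 and 4.57 CPM in wild type and 4.05, 2.41 and 2.56 CPM in mutant (-1.06 ± 0.27, edgeR adjusted p = 0.39). Csf1, which encodes M-CSF, measured 5.50, 5.88 and 6.77 CPM against 4.25, 2.47 and 2.74 CPM (-0.93 ± 0.23, adjusted p = 0.349). The chemokines Ccl6 and Ccl8 had -0.35 and -0.83, and Il1b, the inflammatory cytokine interleukin 1 beta, measured 2.55, 2.53 and 2.63 CPM against 4.73, 3.31 and 3.37 CPM (0.57 ± 0.22, adjusted p = 0.653; Il1bos lies antisense to it). Of 26 interferon-stimulated genes, 19 had a negative fold change, none at an unadjusted p under 0.05, with a median of -0.07, and -0.03 without wild type replicate 3.

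Other cell types the cultures could hold were read from their markers. Macrophage and monocyte markers had a median of -0.08 over 24 genes, with Mrc1, the mannose receptor, lowest at -0.30, and summed to 11500 to 11800 CPM in wild type and 11100 to 11900 CPM in mutant libraries. Neutrophil markers had a median of -0.05, which turned to 0.04 without wild type replicate 3. Their sums of 17300 to 21200 CPM against 20700 to 23400 CPM were nearly all Mmp9, which osteoclasts also express. Mmp9 alone measured 21000, 20500 and 16900 CPM in wild type and 22500, 20400 and 23100 CPM in mutant libraries, so these sums do not measure neutrophils. MHC class II and dendritic cell markers had a median of 0.02, which turned to -0.06 without wild type replicate 3, at 150 to 202 CPM against 154 to 197 CPM. Lymphocyte markers summed to 18.3 to 26.3 CPM against 20.8 to 24.9 CPM, endothelial markers to 10.6 to 14.1 CPM against 12.6 to 15.2 CPM, and mast cell, basophil, erythroid and megakaryocyte markers to 3.47 to 8.27 CPM against 3.57 to 6.38 CPM. Among the defining markers, Cd209a, Mcpt4, Hbb-bs, Hbb-bt, Tek and Cldn5 were at 0 in all 6 libraries. Of these lists only the stromal one kept mutant and wild type libraries apart, and its part in the results above was not tested.

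**Figure D3:**
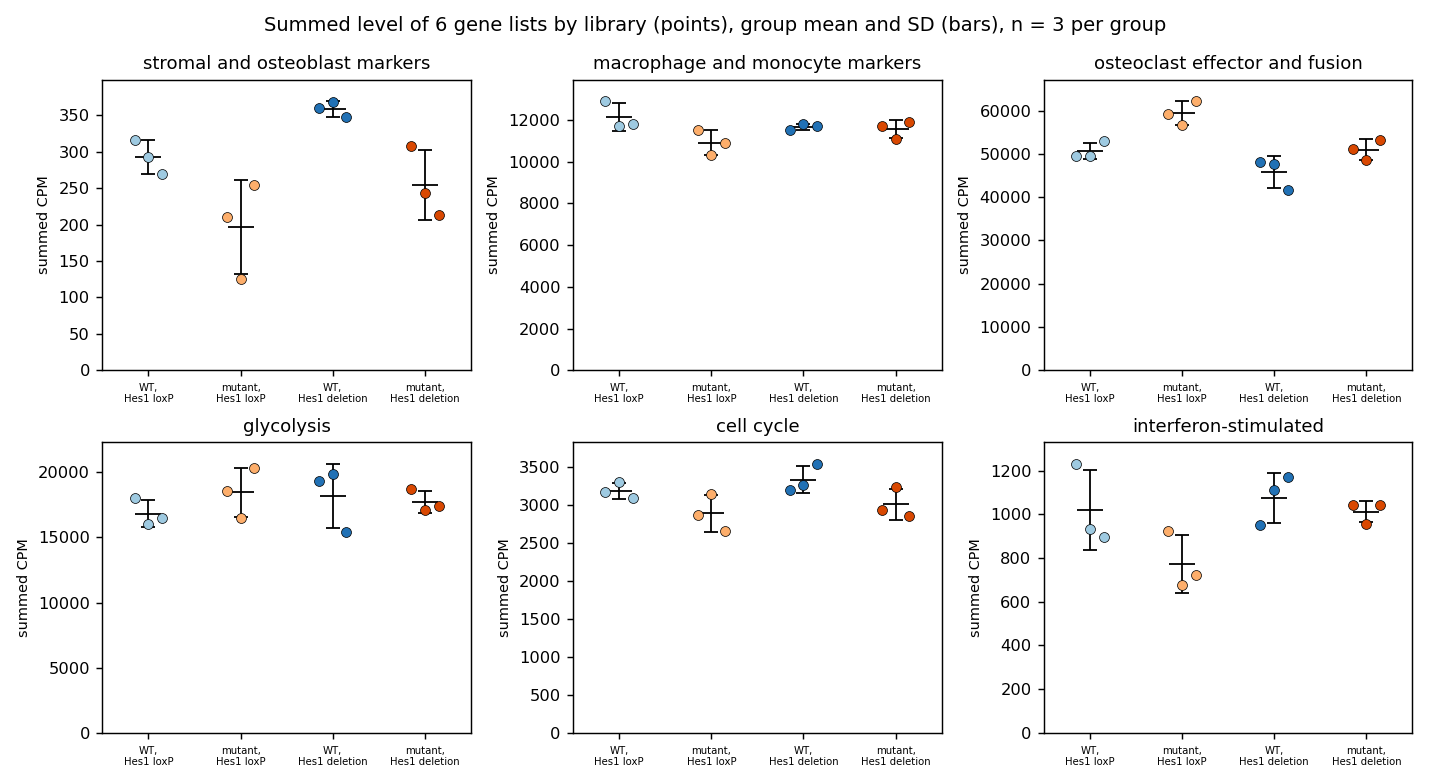
Summed CPM (vertical axis, from 0) of 6 gene lists in each library (points), with group means and SD (bars, n = 3); WT is wild type. With Hes1 deleted, the stromal sums of mutant and wild type do not overlap (213 to 308 against 348 to 369 CPM), the macrophage sums do (11100 to 11900 against 11500 to 11800 CPM), and wild type replicate 3 is the lowest library for glycolysis (15400 CPM).

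The same comparison with Hes1 intact, made on the other 6 libraries in the same fit, called 104 genes (0.776% of genes tested), 19 higher and 85 lower. With wild type Hes1 loxP replicate 1 or 2 left out, 26 and 35 genes were called in place of the 104, and with mutant Hes1 loxP replicate 2 or 3 left out, 46 and 28. These 104 genes were chosen on their values with Hes1 intact, so their size there is no test, and a smaller size elsewhere is read only as a description. With Hes1 deleted, 102 of the 104 had the same sign (98.1%), where 62.5% of all genes tested had the same sign in both comparisons. The exceptions were Plekhg1 and Cebpb, a transcription factor of myeloid cells. An unadjusted p under 0.05 with the same sign was reached by 56 of the 104, and 2 were called, Tnc and Timp3. The median size went from 0.45 with Hes1 intact to 0.19 in the same direction with Hes1 deleted, and 100 of the 104 were smaller with Hes1 deleted. Genes chosen the other way, at an unadjusted p under 0.05 with Hes1 deleted, had smaller medians with Hes1 intact. The 431 higher genes had 0.20 with Hes1 deleted and 0.13 with Hes1 intact, and the 466 lower ones -0.24 and -0.15. Without wild type Hes1 deletion replicate 3, the same 104 genes had a median of 0.13 and 92 kept their sign. Across the 13403 genes the fold changes of both comparisons had r = 0.26 (Spearman 0.29), a description over genes that share libraries and depth.

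For named genes, the values of both comparisons stand side by side. Tnc measured 22.7, 26.1 and 23.6 CPM in wild type and 11.3, 10.4 and 11.8 CPM in mutant libraries with Hes1 intact (log2 fold change -1.09, edgeR adjusted p = 2.09e-05), and the difference between the comparisons was 0.41 (95% interval 0.13 to 0.69, unadjusted p = 0.00643, adjusted p = 0.999). Timp3 had -1.29 with Hes1 intact and a difference of -0.03 (95% interval -0.70 to 0.64), which leaves room for either direction. Thbs2 had -1.15 with Hes1 intact against -0.83 with Hes1 deleted, Tnn -1.34 against -0.82, Csf1 -1.20 against -0.93, and Col12a1, a fibril-associated collagen, -1.05 against -0.64. Cd36 had -0.73 against -0.52. For Thbs2 (-0.22 to 0.87), Tnn, Csf1, Col12a1 and Cd36, the 95% interval of the difference included 0. Gja1, Cald1, Tagln and Lhfpl2 had nearly equal values in both, with differences between -0.02 and 0.02. The 95% interval of each of these differences included 0 and left room for either direction (Gja1 -0.27 to 0.23, Cald1 -0.56 to 0.54, Tagln -0.53 to 0.57, Lhfpl2 -0.23 to 0.27). On the higher side, Il1b had 1.04 against 0.57, Pdk2 0.62 against 0.22, Mfap3l 0.44 against 0.29, and the transglutaminase Tgm2 0.29 against 0.17. The interval of the difference included 0 for Il1b (-1.12 to 0.18), Mfap3l and Tgm2. For Pdk2 it was -0.70 to -0.08 (edgeR adjusted p = 0.999).

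**Figure D4:**
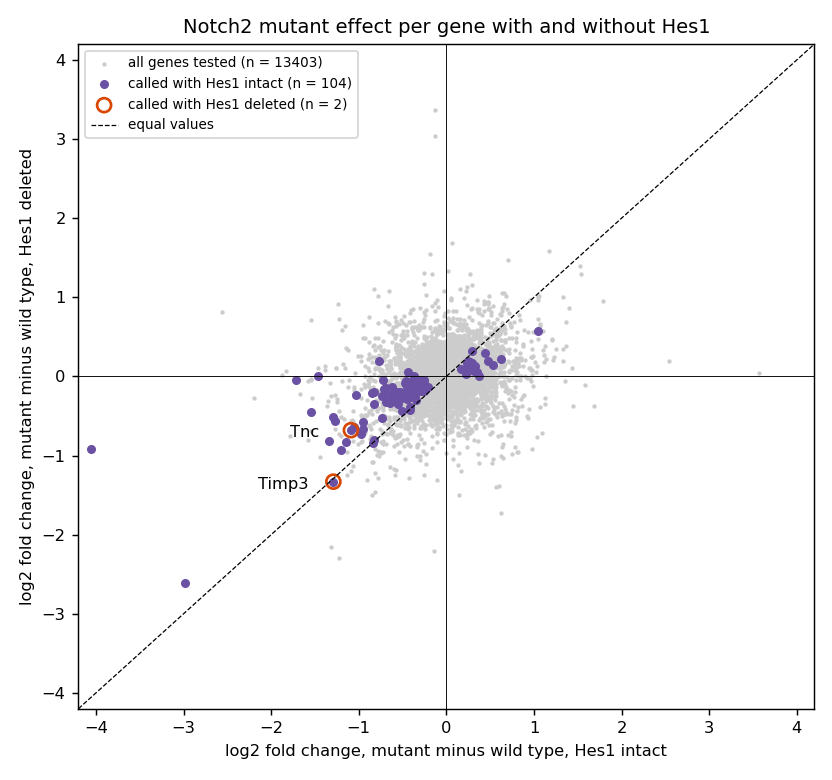
Log2 fold change of mutant minus wild type for each of 13403 genes with Hes1 intact (horizontal axis) and with Hes1 deleted (vertical axis); filled points are the 104 genes called with Hes1 intact and ringed points the 2 called with Hes1 deleted. Most filled points lie between the horizontal line at 0 and the dashed line of equal values, since 100 of the 104 were smaller with Hes1 deleted. The filled points were chosen on their values with Hes1 intact. Timp3 lies on the dashed line.

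The difference between both comparisons was itself tested, as the interaction of Notch2 genotype and Hes1 state. edgeR called 0 genes (0.0% of genes tested), as did DESeq2 and limma-voom, and 506 genes (3.78%) had an unadjusted p under 0.05. Among the 104 genes, 54 did, but they were chosen on the effect with Hes1 intact, which the interaction subtracts, so that count is no test and is not read against the 3.78%. Among genes with a mean log2 CPM of 1 or more and no clone-type name, Pf4, a chemokine of platelets and macrophages, had the smallest p. It measured 33.0, 36.6 and 36.0 CPM in wild type and 30.6, 35.4 and 28.5 CPM in mutant with Hes1 deleted. Its log2 fold change was -0.15 with Hes1 deleted and -0.69 with Hes1 intact, a difference of 0.55 (95% interval 0.30 to 0.80, edgeR adjusted p = 0.999). Pf4 was picked by that p, so the interval is no further test. The genes that follow were picked in the same way and had the same adjusted p. Ccl12, a monocyte chemokine, had -0.05 against -1.72, Slpi, a secreted protease inhibitor, -0.16 against -0.71, Cebpb 0.05 against -0.44, Plekhg1 0.20 against -0.77 and Hif1a, the oxygen-sensitive transcription factor, -0.05 against -0.37. Cd38 and Dgke, a diacylglycerol kinase, had 0.62 and 0.25 with Hes1 deleted and -0.30 and -0.31 with Hes1 intact. Igf2bp3, an RNA-binding protein, had -0.39 against 0.58.

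Gene lists were set side by side by their medians, with no test of the difference. Interferon-stimulated genes had a median of -0.36 with Hes1 intact and -0.07 with Hes1 deleted, and the median of their gene by gene differences (deleted minus intact) was 0.25. Inflammatory genes had -0.29 and -0.05 (median difference 0.18) and macrophage markers -0.24 and -0.08 (0.20). MHC class II and dendritic cell markers had 0.41 and 0.02 (-0.44), with H2-Eb1, a class II chain, at 0.41 and -0.33, and glycolysis had 0.13 and -0.04 (-0.23). Matrix genes had -0.61 and -0.50, with a median difference of 0.19 and 15 of 21 differences positive, so their difference was of the size seen for the inflammatory list although both medians were far below 0. Stromal markers had -0.68 and -0.57 (0.10) and sterol synthesis 0.21 and 0.08 (-0.08). Osteoclast effectors (0.15 and 0.11), cell cycle genes (-0.10 and -0.12) and repressors of osteoclast formation (-0.10 and -0.09) had median differences between -0.02 and 0.01. Without wild type Hes1 deletion replicate 3, the median difference was 0.38 for interferon-stimulated genes, -0.30 for glycolysis and -0.51 for MHC class II and dendritic cell markers. It was then 0.18 for macrophage markers, 0.01 for stromal markers and 0.06 for the repressors. The stromal markers summed to 270 to 316 CPM in wild type and 126 to 254 CPM in mutant libraries with Hes1 intact.

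Of the fits with 1 library left out, the one without wild type Hes1 deletion replicate 3 gave the highest count of called genes in all 3 comparisons (5 with Hes1 deleted, 289 with Hes1 intact and 12 in the interaction). The 5 genes then called with Hes1 deleted were Nr1h3 (0.48), Egln3 (-1.19), Tnc (-0.60), Timp3 (-1.39) and Ero1l (-0.48). Egln3, a prolyl hydroxylase induced in low oxygen, measured 13.5, 18.5 and 3.07 CPM in wild type and 7.75, 8.00 and 5.36 CPM in mutant with Hes1 deleted. Ero1l, an oxidase of the endoplasmic reticulum, measured 148, 145 and 93.6 CPM against 105, 108 and 100 CPM. In both, wild type replicate 3 was the lowest of the 6 and the other wild type libraries were above all mutant ones. Ak4, a mitochondrial adenylate kinase, and Mxi1, a repressor related to MYC partners, had interaction calls in that fit (-1.01, adjusted p = 0.0297, and -0.45, adjusted p = 0.0415) and measured 13.7 and 47.4 CPM in wild type replicate 3 against 28.7 to 29.3 and 61.6 to 63.2 CPM in the other wild type ones. Dab2, an endocytic adaptor, went the other way, at 159 and 160 CPM in wild type replicates 1 and 2 and 234 CPM in replicate 3 (interaction 0.53, adjusted p = 0.0311). What sets this library apart was not tested.

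**Figure D5:**
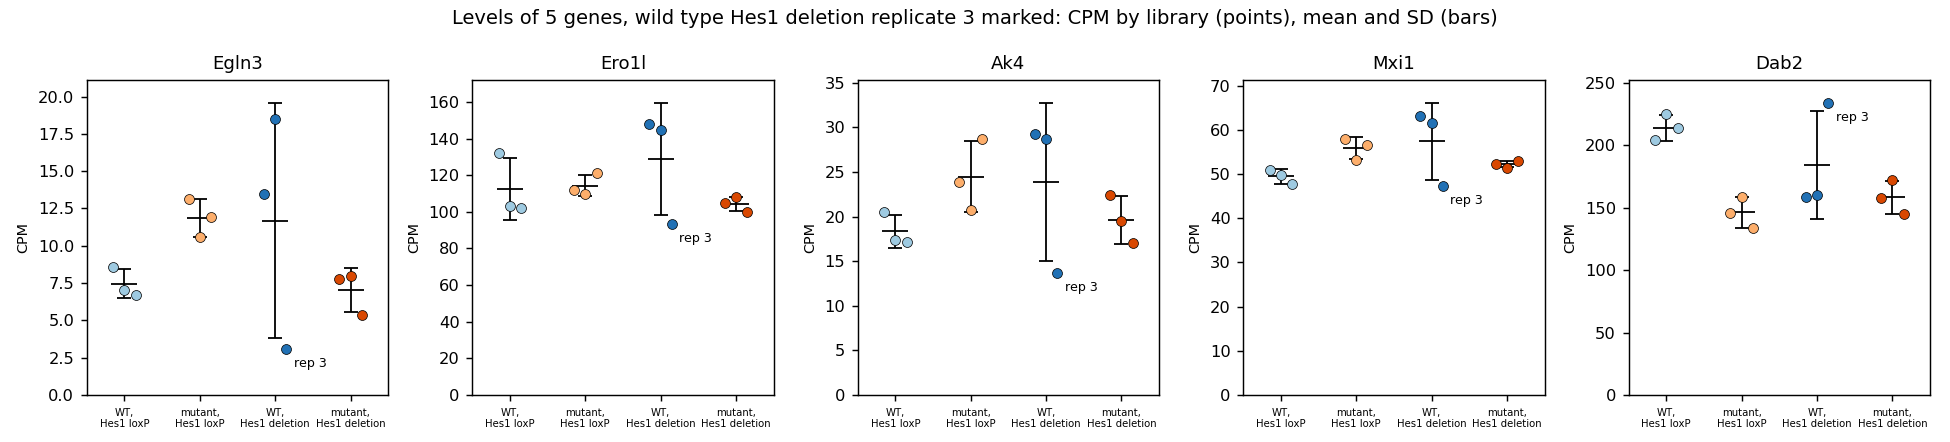
Levels of 5 genes in CPM (vertical axis, from 0) in each library (points) of the 4 groups, with group means and SD (bars, n = 3); WT is wild type and rep 3 marks wild type Hes1 deletion replicate 3. That library is the lowest of the 6 Hes1 deletion libraries for Egln3, Ero1l, Ak4 and Mxi1 and the highest for Dab2.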

How the data were processed

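RNA was measured in 12 cultures of mouse osteoclasts, 3 in each of 4 groups taken from the labels, as paired-end reads of 75 bp from stranded mRNA libraries run in 1 pool. The authors deposited raw counts, 1 whole number a gene. The build was GRCm38 and the tools were DESeq2, HISAT2, HTSeq, Picard and SAMtools, per the submitters' processing notes; the sources used here give no versions, annotation release or strand setting. Exons of antisense genes overlap Malat1, Tbc1d16, Tnfaip2, Il1b, Tgm2, Timp3, Tnc, Tagln, Igf2bp3, Dgke, Cebpb, Hif1a, Acp5, Atp6v0b, Bcl6, Cox5a, mt-Nd6, mt-Co1, Slc2a1, Cyp51, Hmgcs1, Kif20a, Mxi1, Dab2 and Nrarp. Summary lines that name no gene (15.95 to 18.58% of each Hes1 deletion file) were left out. Of 55414 gene IDs, 52081 were named from GENCODE M21.

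The counts of all 12 libraries entered 1 fit in edgeR 4.0.16 (R 4.3.3; quasi-likelihood F-test, a mean per group, TMM scaling, filterByExpr with a minimum count of 10 and minimum total of 15). P-values are two-sided, adjusted by Benjamini and Hochberg's method over 13403 genes, and a gene was called at an adjusted p under 0.05; standard errors come from the F statistic. The script was tested on simulated data. CPM uses counts assigned to genes, without TMM. Counting floors cover counting error only.

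The comparison and the 26 gene lists (7 of them cell type markers) were chosen with earlier results of these data known, so the lists carry no test of their own. The rule for named genes takes Notch2, Hes1 and Ctsk; up to 12 genes a direction with Hes1 deleted, called ones first and then by smallest p; 10 a direction called with Hes1 intact; 10 by interaction p; and 4 a list by smallest p. Genes picked by direction need groups that do not overlap, and these and the interaction genes a mean log2 CPM of 1 or more and no clone-type name. Egln3, Ero1l, Ak4, Mxi1, Dab2, Hey1, Heyl and Nrarp fall outside it and were added once their values were known.

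The alternatives tried were DESeq2 1.42.0 (own filtering), limma-voom (limma 3.58.1), RLE scaling, no filter or a mean count of 50 or more, a replicate block, a fit of only the 6 libraries compared, each library left out, and calls with a log2 fold change of 1 or more; a stromal covariate was added after the data were seen. Same-numbered libraries deviated together with Hes1 intact (correlations 0.246, 0.261 and 0.128).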

Additional observations from a re-analysis of the deposited data

How the results depend on the processing

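With Hes1 deleted, the count of 2 genes was 2 with RLE scaling, with only the 6 libraries compared and with a replicate block, 3 with DESeq2, and 1 with limma-voom, a mean count of at least 50 or a log2 fold change of at least 1. It was 138 with no filter and 0 with the stromal covariate, and 0 to 5 with each library left out. With Hes1 intact, the count of 104 was 242 with DESeq2, 657 with no filter, 2 with the stromal covariate, 15 with a log2 fold change of at least 1, 148 with the replicate block and 26 to 289 with each library left out. The interaction count of 0 was 63 with no filter and 0 to 12 with each library left out. Of the 104 genes, 92 to 103 kept their sign with a Hes1 deletion library left out, and 89 with the stromal covariate. The causes were not tested. Tnc ranged from -0.73 to -0.54 and Timp3 from -1.42 to -1.08 on the log2 scale, and lost their calls in 3 and 10 of 20 alternatives.

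Ccl12 (-0.05) ranged from -0.22 to 0.06 with each library left out, and Cebpb reached -0.00 without wild type Hes1 deletion replicate 1. With the stromal covariate, Ly6a went to 0.17, Col12a1 to 0.09 and Plekhg1 to -0.06. These were 8 reversed values of 1754 for named genes. With Hes1 deleted, same-numbered libraries share only a number (correlations 0.105, -0.182 and -0.0743, and not every library correlated best with its own number), so the replicate block there is no paired result. Low genes limit the comparison: Hes1 lay under the floor, and Hey1, Heyl and Nrarp were too low to test.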

Other observations

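Ly6a, which encodes the surface protein Sca-1 of stem and stromal cells, measured 25.1, 22.7 and 30.8 CPM in wild type and 25.1, 16.2 and 13.5 CPM in mutant libraries with Hes1 deleted (log2 fold change -0.51 ± 0.24, edgeR adjusted p = 0.745), where it was called with Hes1 intact (-1.29, adjusted p = 0.0166). The groups overlapped through mutant replicate 1. Ccl7, a monocyte chemokine, measured 12.3, 13.7 and 27.4 CPM in wild type and 9.74, 15.8 and 9.85 CPM in mutant with Hes1 deleted (-0.56 ± 0.24, adjusted p = 0.734), and -0.13 without wild type replicate 3. Sp7, the osteoblast transcription factor osterix, measured 0.579, 0.880 and 0.752 CPM in wild type and 0.274, 0.181 and 0.312 CPM in mutant. These were 10, 16 and 12 counts against 4, 3 and 5. Sp7 passed the filter on low counts only through wild type libraries, where it was higher, so its fold change and the absence of overlap are not read.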
